A study of Mus musculus with 9 samples.

Results

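Hepcidin, the liver hormone that sets how much iron enters the blood, and 9 genes around it were followed in the livers of mice treated with antibiotics. The 10 genes were taken by symbol from a liver RNA-seq table of 54393 genes: Hamp, Hfe, Tfr2, Tfrc, Trf, Slc40a1, Fth1, Ftl1, Id1 and Smad7. All 10 had enough counts to be tested. None of the 10 passed an adjusted p of 0.05 in the comparison of the groups (edgeR's quasi-likelihood test, lowest adjusted p = 0.254). Hamp averaged 421 ± 108 CPM (counts scaled to the library total) with antibiotics and 284 ± 104 CPM without (SD, n = 4 and n = 5), and the groups overlapped. Among 100 further tested genes of iron and haem biology, 2 metal importers passed, or 2%, beside 2.68% of all tested genes. Slc39a14, which brings in iron not bound to transferrin, was higher with antibiotics, and Slc11a2, which encodes DMT1, was lower. Neither passed with a replicate block or after thinning to equal depth, and each passed in 2 of 9 fits that left out a library.

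The antibiotics group had 4 libraries from C56Bl/6j mice (strain spelled as labelled) on the purified diet AIN-76a, given antibiotics that stay in the gut, in order to deplete its bacteria. The control group had 5 libraries from conventional mice of the same strain on the same diet. Antibiotics libraries carry the replicate numbers 1, 2, 3 and 5. Libraries 1, 2 and 3 held 15422891, 18001886 and 18504624 estimated counts, fewer than any control library. Antibiotics library 5 held 59179622, more than any control library, so depth differed between most libraries of the groups. Control libraries 1 to 5 held between 28156248 and 49628737. Whether every library came from its own mouse is not stated, so p-values reflect library-to-library spread, which may be technical. The antibiotics are not named in the labels, and neither are age, sex or the time of sampling.

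Iron leaves macrophages and gut cells through ferroportin, the product of Slc40a1, and hepcidin closes that exit. Hepatocytes transcribe Hamp when bone morphogenetic proteins (BMPs) from liver endothelial cells activate SMAD proteins, a signal tuned by Hfe, the transferrin receptor Tfr2 and hemojuvelin, and when interleukin 6 activates STAT3. Id1 and Smad7 are direct targets of the same SMAD signal, and Smad7 feeds back to inhibit it. Transferrin, from Trf, carries iron in plasma, Tfrc encodes the receptor that takes it up, and Fth1 and Ftl1 encode the heavy and light chains of ferritin, which stores it. Iron regulatory proteins bind hairpins called iron-responsive elements when iron is low. Bound at the start of a message they block translation, and bound at the end of the Tfrc message they protect it from decay.

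Iron-responsive elements were searched in all annotated coding transcripts as a hairpin with the loop CAGTG and then A, C or T, 5 paired bases above the bulge and, below it, at least 5 of 6 pairs (C bulge) or 4 of 5 (the internal loop TGC opposite C). Elements that depart from this pattern are missed, so the matches need not be a complete set. The search found 14 of 21901 coding genes (0.0639%), 4 of them among the 10 described here. They are shown because iron regulatory proteins act on these members through them, and are printed 5′ to 3′ from the GENCODE M21 transcripts with the loop in capitals.
Fth1, 5′ UTR: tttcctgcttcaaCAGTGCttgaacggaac
Ftl1, 5′ UTR: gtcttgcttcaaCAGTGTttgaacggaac
Slc40a1, 5′ UTR: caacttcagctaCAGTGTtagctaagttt
Tfrc, 3′ UTR: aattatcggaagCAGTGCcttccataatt
Tfrc, 3′ UTR: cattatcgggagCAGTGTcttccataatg
Tfrc, 3′ UTR: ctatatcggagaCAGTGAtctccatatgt
Tfrc, 3′ UTR: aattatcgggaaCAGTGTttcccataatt
On GRCm38 the Fth1 element lies at chr19:9982731-9982760 (plus strand), that of Ftl1 at chr7:45459779-45459807 (minus strand) and that of Slc40a1 at chr1:45925465-45925493 (minus strand). The 4 Tfrc matches lie within chr16:32631219-32631738 on the plus strand. RNA-seq counts how much of these messages was present, not how much was translated.

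The hepcidin gene Hamp (ENSMUSG00000050440.8, chromosome 7, 30942368 to 30944032, minus strand) measured 572, 354, 333 and 426 CPM in antibiotics libraries 1, 2, 3 and 5. In control libraries 1 to 5 it measured 404, 230, 170, 232 and 384 CPM. Antibiotics library 1 was highest and control libraries 2, 3 and 4 were below every antibiotics library, while control libraries 1 and 5 lay within the antibiotics range. The fitted fold change was 1.48 (95% interval 1.01 to 2.17, log2 fold change 0.57 ± 0.25 SE), with an unadjusted p of 0.0431 in edgeR's quasi-likelihood test and an adjusted p of 0.254. The groups thus overlapped, and the interval of the single test began just above 1. Leaving out antibiotics library 1 gave a 1.31-fold difference (adjusted p = 0.539), and leaving out control library 1 gave 1.66-fold (0.164).

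Tfr2 (chromosome 5, 137569840 to 137587481, plus strand), the transferrin receptor of hepatocytes that senses iron-laden transferrin, measured 292, 269, 299 and 315 CPM in the antibiotics libraries and 239, 274, 260, 227 and 284 CPM in the control libraries. Control libraries 2 and 5 lay above antibiotics library 2, so the groups overlapped. The fold change was 1.15 (95% interval 1.01 to 1.31, unadjusted p of 0.0431 and adjusted p = 0.254 by edgeR's quasi-likelihood test). Hamp and Tfr2 were the 2 of 10 members with an unadjusted p under 0.05, or 20%, where 18.5% of all 14873 tested genes had one. In the same fit 2.68% of all tested genes passed after adjustment and 0 of 10 members did, and 0 of 10 passed with DESeq2 or limma-voom, which called 6.68% and 2.78% of all genes. Hfe (chromosome 13, 23702034 to 23710854, minus strand), whose product joins Tfr2 in iron sensing, measured 34.7 to 38.1 CPM with antibiotics and 33.4 to 41.7 CPM in controls, a fold change of 0.978 (95% interval 0.867 to 1.10, adjusted p = 0.870). For Hfe, Gm20826 and Gm21244 met the search rule for close copies (95% identity over 200 nt). Each aligned over 398 nt, while the principal Hfe transcript has 3572 nt. Gm20826 had 0 counts and Gm21244 had 3.48% as many as Hfe. Groups did not overlap in 0 of 10 members and in 8.88% of all tested genes.

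**Figure D1:**
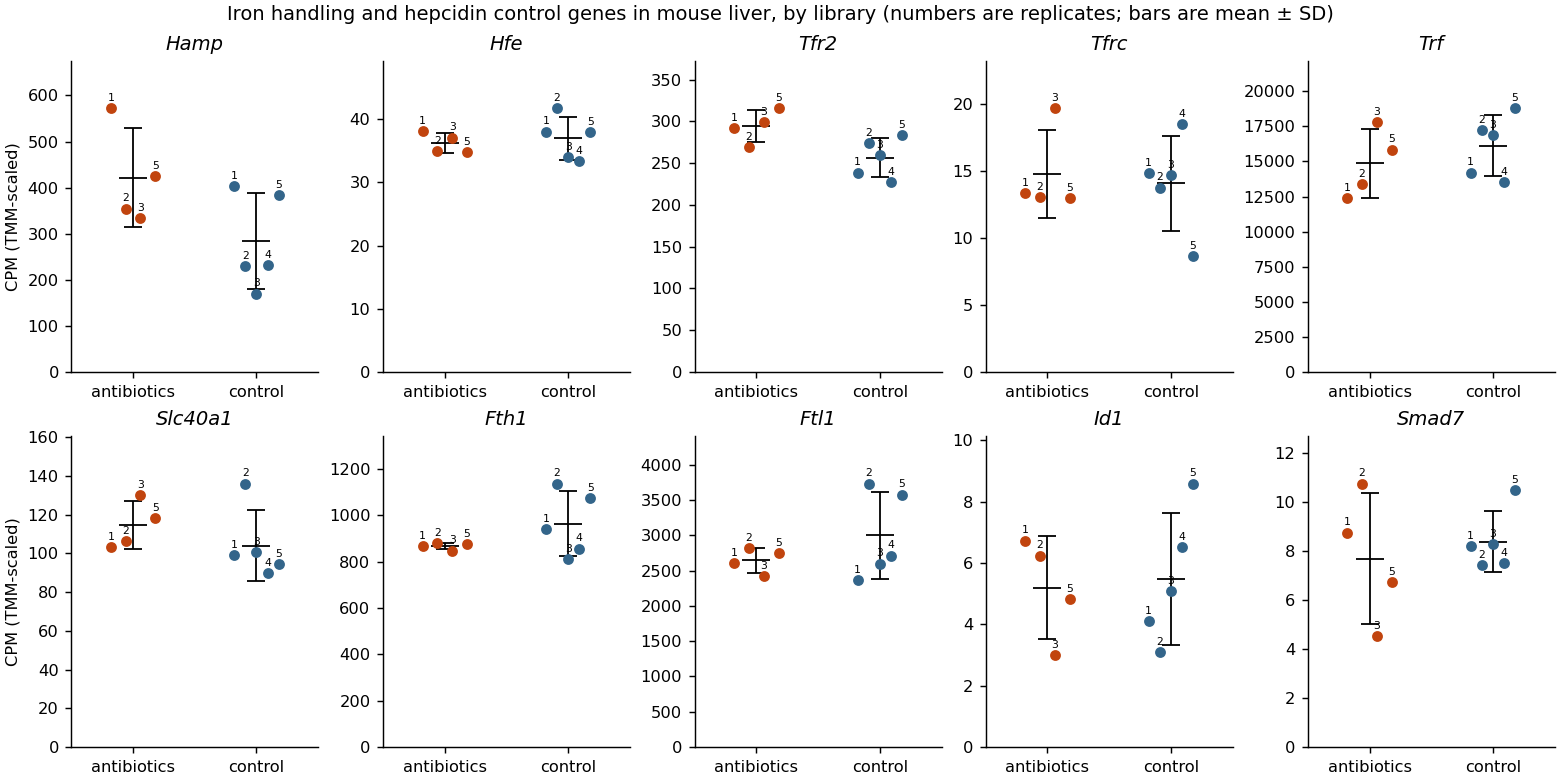
CPM on TMM-scaled libraries (y axes, from 0) for each of the 10 genes in antibiotics libraries and control libraries, with points numbered by replicate and bars for mean ± SD (n = 4 and n = 5). Hamp ranges from 333 to 572 CPM with antibiotics and from 170 to 404 CPM in controls, and in every panel the points of the groups overlap.

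The SMAD targets Id1 and Smad7 had fitted folds below 1, on the other side from Hamp, and their groups overlapped. Id1 (chromosome 2, 152736251 to 152737410, plus strand), an inhibitor of helix-loop-helix transcription factors, measured 6.73, 6.24, 2.98 and 4.81 CPM with antibiotics and 4.10, 3.10, 5.09, 6.51 and 8.59 CPM in controls. The fold change was 0.949 (95% interval 0.603 to 1.49, adjusted p = 0.924). Smad7 measured 8.76, 10.8, 4.53 and 6.73 CPM with antibiotics and 8.20, 7.44, 8.28, 7.51 and 10.5 CPM in controls, a fold change of 0.914 (95% interval 0.668 to 1.25, adjusted p = 0.789). Both genes had their lowest value in antibiotics library 3, whose 54 and 82 counts for Id1 and Smad7 were also the fewest of any library. The fitted fold of Id1 lay above 1 when antibiotics library 3 (1.08), control library 4 (1.00) or control library 5 (1.10) was left out, and that of Smad7 when antibiotics library 3 was (1.03).

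Hamp was set against each of the other 9 genes across the 9 libraries (log2 CPM). For Id1, Pearson's r was 0.25 (exact permutation p = 0.505, adjusted p = 0.917 over 9 relations) and Spearman's rho 0.30 (exact permutation p = 0.437, adjusted p = 0.786). Smad7 gave r = 0.12 (exact permutation p = 0.770, adjusted p = 0.951) and rho = 0.17 (exact permutation p = 0.678, adjusted p = 0.871). The largest r was with Tfr2, at 0.47 (exact permutation p = 0.206, adjusted p = 0.917), and its rho was 0.47 (exact permutation p = 0.213, adjusted p = 0.786). Without antibiotics library 1 and control library 3, the 2 farthest from the Hamp median, r was 0.20 for Id1, 0.15 for Smad7 and 0.44 for Tfr2. After centring each group on its mean, r was 0.36 for Id1, 0.35 for Smad7 and 0.10 for Tfr2. No r is given within a group, since each holds under 6 libraries. Of the 9 relations, 0 had an unadjusted or adjusted p under 0.05, and r lay between -0.37 (Trf) and 0.47.

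**Figure D2:**
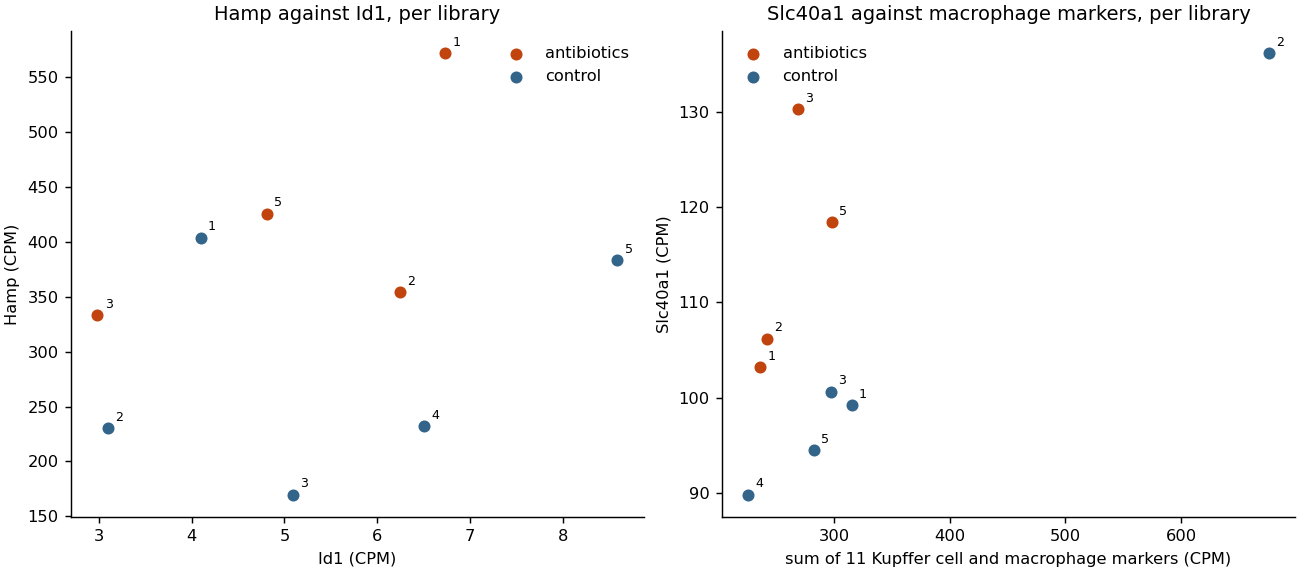
Left, Hamp (y axis, CPM) against Id1 (x axis, CPM), and right, Slc40a1 (y axis, CPM) against the summed CPM of 11 Kupffer cell and macrophage markers (x axis), 1 point a library, numbered by replicate. Antibiotics libraries 1 and 3 have the highest and the lowest Id1 of their group. Control library 2 stands apart on the right, at 676 CPM of macrophage markers and 136 CPM of Slc40a1.

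Over the 14872 other tested genes, Id1 stood at rank 4142 and Smad7 at rank 5630 for likeness to Hamp by r. The 5 genes most like Hamp were Fbxw4, 2310039H08Rik, Mrpl41, Egln1 and Osbpl7, with r from 0.93 to 0.97 over the 9 libraries, which is a description of these libraries with no test. Egln1, a prolyl hydroxylase that marks hypoxia-inducible factors for decay, measured 24.0 to 26.1 CPM with antibiotics and 20.6 to 24.0 CPM in controls (adjusted p = 0.377 by edgeR's quasi-likelihood test). The 5 genes had adjusted p of 0.181 to 0.523 in the comparison of the groups.

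Hamp2, a second hepcidin gene near Hamp in the mouse genome, whose peptide is not known to act on iron in mice as hepcidin does, varied far more than Hamp. It measured 41.0, 62.4, 29.8 and 13.1 CPM with antibiotics and 75.4, 35.2, 8.49, 26.8 and 5.43 CPM in controls. The fold change of 1.19 had a 95% interval of 0.443 to 3.20 (adjusted p = 0.877). The longest coding transcripts of Hamp and Hamp2 align over 417 nt at 93.0% identity, and Hamp2 had 9449 counts against 101241 of Hamp over all libraries, so reads could in part have been split between them. An exon of Hamp2 overlaps Gm44662 on the opposite strand.

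Of the iron exporter Slc40a1 (chromosome 1, 45908068 to 45926523, minus strand) there were 103, 106, 130 and 118 CPM in the antibiotics libraries and 99.2, 136, 101, 89.8 and 94.5 CPM in the control libraries. Every antibiotics library was above control libraries 1, 3, 4 and 5, and control library 2 was above all of them. The fold change was 1.10 (95% interval 0.916 to 1.32, adjusted p = 0.585), and 1.20 without control library 2 (adjusted p = 0.172). Macrophages, which recycle the iron of red cells, are rich in ferroportin. Control library 2 also held the most macrophage RNA: the 11 Kupffer cell and macrophage markers, none of them at 0, summed to 676 CPM there, to 226 to 315 CPM in the other controls and to 236 to 298 CPM with antibiotics. Of these markers 11 of 11 had folds below 1 (median log2 fold change -0.36, beside -0.01 over all tested genes) and 0 passed. In fits leaving out 1 library, the log2 folds nearest 0 were -0.15 for Cd5l, -0.22 for Adgre1, -0.15 for C1qb and -0.09 for Csf1r. The adjusted p of each of them in edgeR's test was highest without control library 2 (0.527 to 0.796). The part of these cells in the Slc40a1 values was not tested. In bulk liver, fewer cells of a type and less RNA per cell cannot be told apart.

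Neither ferritin message passed, and the SD of both was larger among controls. Fth1 (chromosome 19, 9980598 to 9985098, plus strand) measured 866, 880, 848 and 875 CPM with antibiotics and 941, 1138, 811, 857 and 1075 CPM in controls, or 867 ± 13.9 and 964 ± 140 CPM (SD). Ftl1 (chromosome 7, 45457944 to 45459884, minus strand) measured 2602, 2816, 2416 and 2743 CPM with antibiotics and 2365, 3733, 2600, 2713 and 3577 CPM in controls. Control libraries 2 and 5 were the highest for both chains, and no antibiotics library reached them. The fold changes were 0.899 for Fth1 (95% interval 0.763 to 1.06, adjusted p = 0.490) and 0.882 for Ftl1 (95% interval 0.707 to 1.10, adjusted p = 0.549). Ftl1 has 5 close copies with 1.04% of its counts, and exons of Gm10252 overlap it on the opposite strand. The log2 ratio of Fth1 to Ftl1 was -1.61 ± 0.07 with antibiotics and -1.62 ± 0.17 in controls (SD).

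Tfrc (chromosome 16, 32608920 to 32632794, plus strand), the receptor for transferrin uptake, measured 13.3, 13.1, 19.7 and 12.96 CPM with antibiotics and 14.9, 13.8, 14.7, 18.5 and 8.63 CPM in controls. Antibiotics library 3 and control library 4 stood above the rest and control library 5 below. The fold change was 1.04 (95% interval 0.773 to 1.40, adjusted p = 0.912), and it was 0.926 without antibiotics library 3 and 0.95 without control library 5. Iron regulatory proteins protect the Tfrc message from decay but block translation of the ferritin messages, and RNA counts do not measure translation. The ratio of these messages is therefore a description and not a measure of those proteins. The log2 ratio of Tfrc to Fth1 was -5.90 ± 0.31 with antibiotics and -6.13 ± 0.56 in controls (SD), with overlapping values. The difference of 0.23 was 0.07 without antibiotics library 3 and 0.02 without control library 5. Per kilobase of principal transcript, Tfrc was at 3.02 CPM with antibiotics and 2.88 CPM in controls, while Tfr2 was at 95.7 and 83.5 CPM. Hamp, a message of 410 nt, was at 1027 CPM per kilobase with antibiotics and at 693 CPM per kilobase in controls.

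Transferrin itself, Trf (chromosome 9, 103204001 to 103230444, minus strand), was the gene with the 4th highest mean CPM in these livers. It measured 12395, 13381, 17821 and 15847 CPM with antibiotics, against 14214, 17258, 16879, 13536 and 18778 CPM in controls, a fold change of 0.921 (95% interval 0.733 to 1.16, adjusted p = 0.725). The groups covered nearly the same range. Gm20425, which overlaps Trf on the same strand, held 0.039% as many counts.

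**Figure D3:**
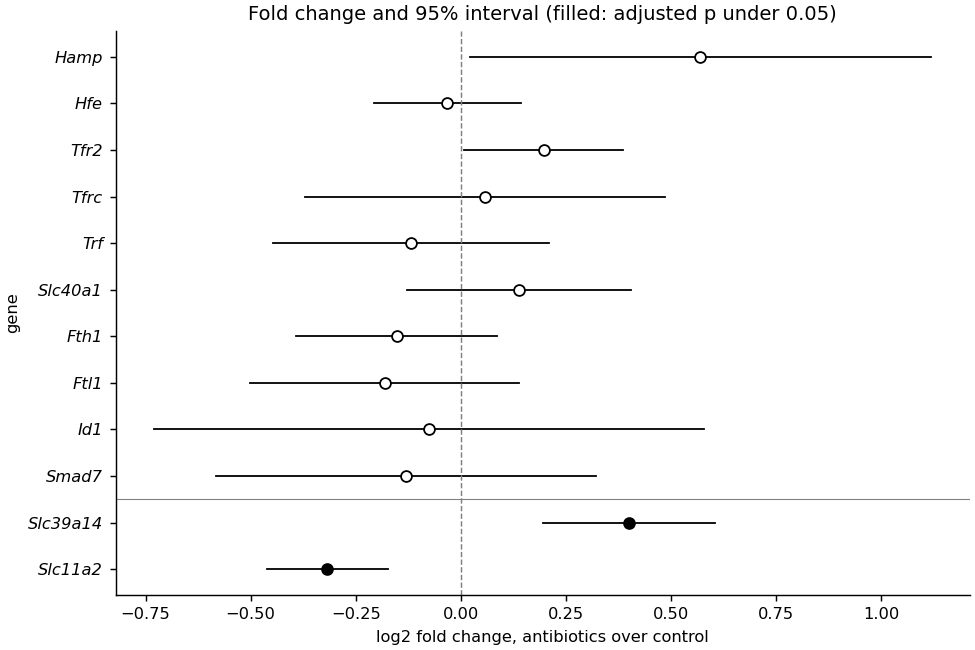
Log2 fold change of antibiotics over control (x axis) with its 95% interval for the 10 genes (above the line) and for the importers Slc39a14 and Slc11a2 (below it), with filled points at an adjusted p under 0.05. Hamp and Tfr2 have intervals above 0 without passing after adjustment, and the filled points are Slc39a14 at 0.40 and Slc11a2 at -0.32.

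The lists of related genes were read from the same fit. Of 100 tested genes in 8 lists of iron and haem biology, 1 was higher and 1 lower with antibiotics, or 2%, where 1.63% of all tested genes were higher and 1.05% lower. An unadjusted p under 0.05 was found for 20 of the 100, against 18.5% of all tested genes. Both genes that passed belong to the 18 tested genes of iron transport, reduction and storage, with a median log2 fold change of -0.02 beside -0.01 over all tested genes. DESeq2 called 8 of the 100, where it called 6.68% of all genes, and limma-voom called the same 2 genes as edgeR.

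Slc39a14 (ENSMUSG00000022094.15, chromosome 14, 70303469 to 70351425), which encodes ZIP14, imports iron that is not bound to transferrin, zinc and manganese into hepatocytes. It measured 332, 252, 278 and 287 CPM with antibiotics and 191, 212, 225, 228 and 231 CPM in controls, and the groups did not overlap. The log2 fold change was 0.40 ± 0.09 (SE), 1.32-fold (adjusted p = 0.0474). Over the fits that left out 1 library, the fold kept its sign and the adjusted p ran from 0.0474 to 0.130, passing in 2 of 9. It was 0.102 with a replicate block, 0.0841 after thinning and 0.0618 with no filter.

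Slc11a2 (ENSMUSG00000023030.16, chromosome 15, 100387898 to 100425072), which moves ferrous iron out of endosomes and across membranes, measured 22.9, 23.7, 21.8 and 22.6 CPM with antibiotics. In controls it measured 27.3, 28.0, 26.8, 29.5 and 30.2 CPM, above every antibiotics library. The log2 fold change was -0.32 ± 0.07 (SE), 0.802-fold (adjusted p = 0.0343). The adjusted p ran from 0.0326 to 0.102 over the fits without 1 library, passing in 2 of 9, and was 0.0918 with a replicate block and 0.119 after thinning. An exon of Gm5475 overlaps Slc11a2 on the opposite strand, and the strand setting of the counting is not given in the sources used here. The hairpin search matched no Slc11a2 transcript, but it misses elements that depart from its pattern. Counts per gene do not separate the Slc11a2 messages with and without an iron-responsive element.

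**Figure D4:**
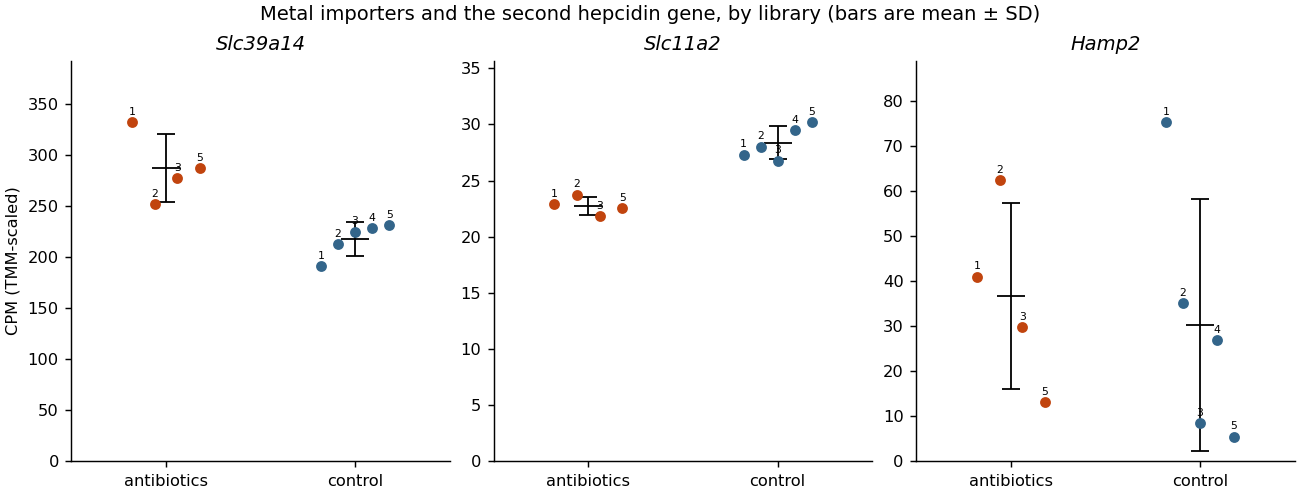
CPM on TMM-scaled libraries (y axes, from 0) for Slc39a14, Slc11a2 and Hamp2 in antibiotics and control libraries, with points numbered by replicate and bars for mean ± SD (n = 4 and n = 5). The groups separate for Slc39a14 (252 to 332 against 191 to 231 CPM) and Slc11a2 (21.8 to 23.7 against 26.8 to 30.2 CPM), and overlap for Hamp2.

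In the BMP ligand and receptor list 0 of 18 tested genes passed with edgeR (4 at an unadjusted p under 0.05, 1 with DESeq2, 0 with voom). Folds lay above 1 for 9 genes and below 1 for 9, with a median log2 fold change of -0.002. Groups did not overlap for 3 of the 18, beside 8.88% of all tested genes. The activin receptor Acvr2b measured 2.88 ± 0.620 CPM with antibiotics and 1.89 ± 0.138 CPM in controls (adjusted p = 0.0725). The gene of hemojuvelin, the BMP coreceptor named Hfe2 in the annotation, measured 84.5 ± 3.14 and 70.8 ± 6.87 CPM in antibiotics and control livers (1.19-fold, adjusted p = 0.109, and 0.0483 without control library 5), with no overlap of the groups. The remaining genes with an unadjusted p under 0.05 had folds below 1. Smad4 measured 22.4 ± 0.754 CPM with antibiotics and 25.6 ± 1.92 CPM in controls (0.872-fold, adjusted p = 0.181 with edgeR). Fkbp1a measured 36.6 ± 2.55 CPM with antibiotics and 42.4 ± 5.34 CPM in controls (0.865-fold, adjusted p = 0.268 with edgeR). Its groups did not overlap but nearly touched, at 39.11 CPM in antibiotics library 5 and 39.13 CPM in control library 1. The ligands Bmp6 and Bmp2 and the protease Tmprss6, which cuts hemojuvelin from the cell surface, were named after their values were seen. Bmp6 measured 3.70 ± 0.840 CPM with antibiotics and 3.28 ± 0.916 CPM in controls (adjusted p = 0.699). Bmp2 measured 12.1 ± 0.359 CPM with antibiotics and 11.7 ± 2.36 CPM in controls (adjusted p = 0.869). Tmprss6 measured 408 ± 31.6 CPM with antibiotics and 408 ± 40.1 CPM in controls (adjusted p = 1.00). An exon of Txndc5 overlaps Bmp6 on the opposite strand.

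Of 8 genes listed as other SMAD targets 0 passed with edgeR (1 at an unadjusted p under 0.05, 1 with DESeq2, 0 with voom). Over all genes, 18.5% had an unadjusted p under 0.05 and 6.68% passed with DESeq2. Groups did not overlap for 1 of the 8, beside 8.88% of all tested genes. Folds lay above 1, on the side of Hamp, for 6 and below 1 for 2. Their median log2 fold change was 0.20, beside -0.01 over all tested genes. Atoh8, a transcription factor that promotes Hamp transcription, measured 9.95 ± 2.53 CPM with antibiotics and 14.1 ± 1.04 CPM in controls, without overlap (log2 fold change -0.49 ± 0.15, adjusted p = 0.107). Id2, a relative of Id1, measured 82.2 ± 5.32 and 72.4 ± 22.3 CPM in antibiotics and control livers (adjusted p = 0.608). Without control library 5, where Id2 was at 112 CPM, its adjusted p was 0.0250. Smad9 measured 19.6 ± 3.99 CPM with antibiotics and 14.6 ± 4.24 CPM in controls (1.35-fold, adjusted p = 0.296 with edgeR). Smad6 measured 3.19 ± 0.303 CPM with antibiotics and 2.77 ± 0.581 CPM in controls (1.16-fold, adjusted p = 0.549 with edgeR). On the interleukin 6 arm 0 of 8 passed with edgeR, DESeq2 or voom, and 0 had an unadjusted p under 0.05. Socs3, a STAT3 target, measured 7.33 ± 2.48 CPM with antibiotics and 9.11 ± 3.37 CPM in controls (adjusted p = 0.597).

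Among 9 genes of iron and oxygen sensing 0 passed with edgeR (4 at an unadjusted p under 0.05, 1 with DESeq2, 0 with voom). Ireb2, the iron regulatory protein IRP2, measured 100.3 ± 9.61 CPM with antibiotics and 84.7 ± 10.7 CPM in controls (adjusted p = 0.236). Fbxl5, the iron sensor that marks IRP2 for decay, measured 22.7 ± 0.907 and 26.1 ± 1.40 CPM in antibiotics and control livers (adjusted p = 0.136), and its groups did not overlap. Exons of Bst1 overlap Fbxl5 on the opposite strand.

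In haem scavenging and breakdown 0 of 12 genes passed with edgeR (4 at an unadjusted p under 0.05, 2 with DESeq2, 0 with voom). Over all genes, 18.5% had an unadjusted p under 0.05 and 6.68% passed with DESeq2. The list had the lowest median of the 8, at -0.17 beside -0.01 over all tested genes, with 9 of 12 folds below 1. Hmox1, the haem oxygenase that frees iron from haem, measured 9.28, 10.98, 8.56 and 9.40 CPM with antibiotics and 15.1, 25.7, 13.7, 10.6 and 13.6 CPM in controls. Control library 4 lay below antibiotics library 2, and control library 2, with the macrophage markers at 676 CPM, was highest. The log2 fold change was -0.72 ± 0.22 (adjusted p = 0.107), and -0.46 without control library 2 (adjusted p = 0.0948). Flvcr2, named as a haem transporter, measured 2.49 ± 1.15 CPM with antibiotics and 1.19 ± 0.257 CPM in controls (adjusted p = 0.0702).

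In haem synthesis 0 of 9 passed with edgeR, DESeq2 or voom, and 2 had an unadjusted p under 0.05, beside 18.5% of all tested genes. Alas2, the aminolevulinate synthase of red cell precursors, measured 104 ± 15.4 CPM with antibiotics and 79.6 ± 10.4 CPM in controls (adjusted p = 0.124). The hairpin search matched its 5′ UTR, and there are exons of Apex2 and Mir3620 on its opposite strand. Alas2 is also 1 of 7 red cell markers, of which 5 were tested with 5 folds above 1 and 0 passing. They summed to 270 to 362 CPM with antibiotics and to 193 to 308 CPM in controls, and the part of such cells in the Alas2 values was not tested. In iron-sulfur cluster assembly 0 of 18 passed with edgeR (2 at an unadjusted p under 0.05, 1 with DESeq2, 0 with voom). DESeq2 called 6.68% of all genes. Mms19, which hands clusters to DNA repair enzymes, measured 31.6 ± 2.29 CPM with antibiotics and 25.2 ± 2.73 CPM in controls (adjusted p = 0.0758), and exons of Zdhhc16 overlap it on the opposite strand.

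**Figure D5:**
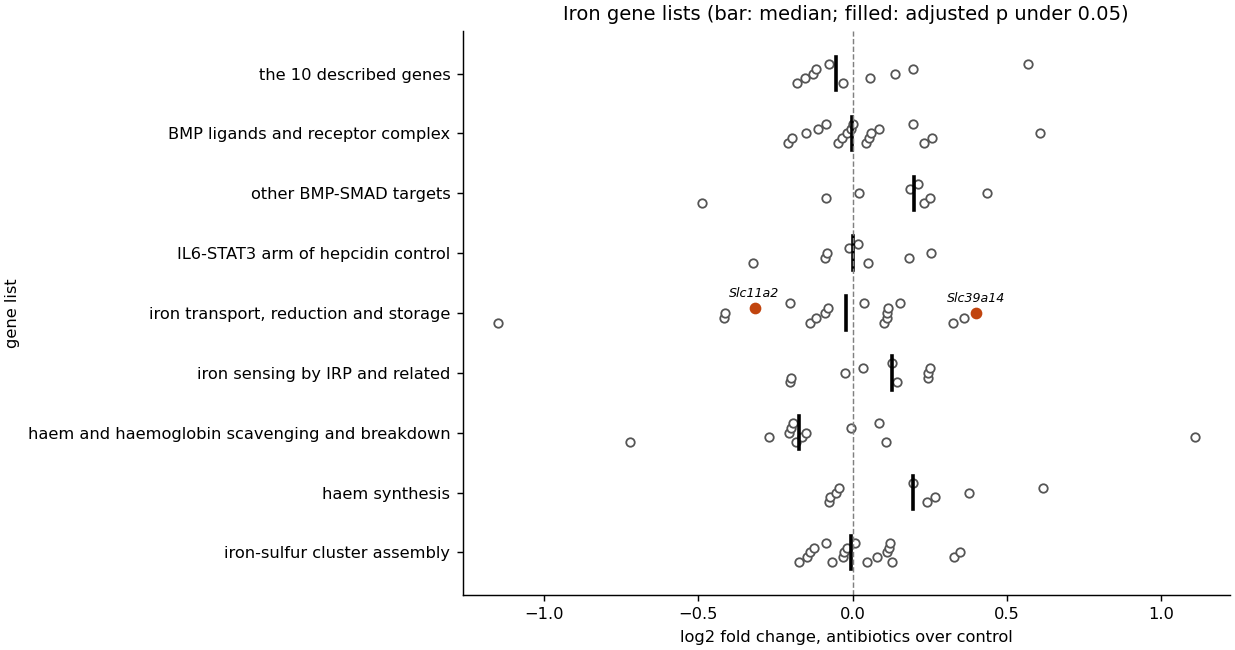
Log2 fold change of antibiotics over control (x axis) for each tested gene of the 10 described genes and of 8 lists of iron and haem genes (rows), with a bar at each median and filled points at an adjusted p under 0.05. The filled points are Slc39a14 and Slc11a2, and medians lie between -0.17 (haem scavenging and breakdown) and 0.20 (other SMAD targets).

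The liver label was checked on 5 hepatocyte markers, which summed to 78044 to 85576 CPM with antibiotics and 77497 to 90234 CPM in controls, with none at 0. Mitochondrially encoded genes took 5.28% to 7.43% of counts with antibiotics and 4.44% to 6.66% in controls. Endothelial markers, the source of BMP ligands, summed to 257 to 266 CPM with antibiotics and 241 to 306 CPM in controls. Of the hepatocyte markers, DESeq2 called Cyp2e1 and edgeR did not (adjusted p = 0.0661). The part of these values in the results above was not tested.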

How the data were processed

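Liver RNA was sequenced from stranded poly(A) libraries, per the labels' protocols. The authors deposited estimated counts per gene, made with Salmon on GRCm38 per the submitters' processing notes. The values were already whole numbers and entered the fit unchanged. Symbols, positions and transcripts came from GENCODE M21. Genes were kept by filterByExpr of edgeR 4.0.16 (minimum count 10, total 15), leaving 14873. Counts were TMM-scaled and fitted in R 4.3.3 with edgeR's quasi-likelihood F test, group as the only term, Benjamini-Hochberg adjustment over all tested genes and a threshold of 0.05. Intervals are log2 fold change ± t quantile times SE. Log2 CPM for correlations used a prior count of 2. On simulated counts of 14873 genes in this design the test recovered 48% of genes changed 1.5-fold and 78% at 2-fold. Close copies were searched with BLAST+ 2.17.0 (95% identity over 200 nt). Every pair of libraries within a group differed by more than counting noise (lowest chi-square per degree of freedom 18.5).

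Members and lists were chosen with earlier results of these data known. Named by rule were the 10 members, up to 4 genes of smallest p per list and any that passed, the 5 genes most like Hamp, and close copies. Bmp6, Bmp2 and Tmprss6 fall outside that rule. In all 9 marker lists (those in the report and stellate, bile duct, lymphocyte, neutrophil and fat cells) 0 genes passed with edgeR or voom, and DESeq2 called 1, the hepatocyte marker Cyp2e1 (adjusted p = 0.00318). An unadjusted p under 0.05 was found for 1 gene each in the hepatocyte, endothelial, neutrophil and red cell lists. Also tried were DESeq2 1.42.0, voom of limma 3.58.1, scaling by RLE or upper quartile, different filters and library sizes, thinning, leaving out single libraries and a block for the replicate number. Summing each member with its close copies was added after seeing the data. Some items are not reported here.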

Additional observations from a re-analysis of the deposited data

Results flagged for a closer look

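Of 26 groups of values examined (the 10 genes, Slc39a14, Slc11a2 and Hamp2, in each group of libraries), 2 held a library far from the others, and chance gives about 1 in 20. Tfrc measured 19.7 CPM in antibiotics library 3, against 12.96 to 13.3 CPM in the other antibiotics libraries. Slc40a1 measured 136 CPM in control library 2, against 89.8 to 101 CPM in the other controls.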

How the results depend on the processing

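None of the 10 genes passed under any of the 19 alternatives run, and 0 of the 9 correlations with Hamp passed with a prior count of 0.5, on centred values or without any 1 library. Over all genes the count of 398 became 976 with DESeq2, 209 after thinning all libraries to the smallest total, 169 with the replicate block and 36 to 455 when 1 library was left out (lowest without antibiotics library 5). The 2 calls among the 100 related genes became 8 with DESeq2, 1 with no filter, 0 after thinning, 1 with the replicate block (Hmox1, adjusted p = 0.0416) and 0 to 4 without 1 library, with the 4 (Slc11a2, Slc39a14, Hfe2 and Id2) found without control library 5. The cause of these differences was not tested. The labels do not say whether the replicate numbers pair the libraries. Deviations of same-numbered libraries correlated between -0.06 and 0.10 over 4 pairs. Of the 4 antibiotics libraries, 2 correlated best with the control of their own number. With so few pairs, these values cannot settle whether the libraries are paired. With the replicate block in edgeR's quasi-likelihood test, the adjusted p of Hamp was 0.0798. Without any 1 library the difference between the groups in log2 ratio ran from 0.02 to 0.37 for Tfrc to Fth1, from -0.01 to 0.09 for Fth1 to Ftl1 and from 0.51 to 0.90 for Hamp to Id1. The fold of Id1 was above 1 with the replicate block (1.02). Among the 10 genes Id1 and Smad7 had the fewest counts in a library, 54 and 82.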
